A study of Arabidopsis thaliana with 12 samples.

Results

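A set of 58 genes differed between lcs7 and Col-0 in the same direction at both calcium supplies, with 39 genes higher and 19 lower in lcs7. The members were selected on these very arrays, from 13356 genes that a single-gene probe set measures. A gene entered when its mean log2(signal + 50) in lcs7 lay at least 0.8 above that in Col-0 at both supplies, or at least 0.8 below it at both. In addition, its change from 2 to 0.3 mM calcium within lcs7 had to lie above -0.6 and below 1. Only genes that the annotation names by locus alone were eligible, and 9 such genes had been left out of the choice, which left 11790 genes. The differences below that fixed this choice are therefore given as a description, with no test.

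Shoots of 14-day-old Arabidopsis thaliana seedlings were profiled on Affymetrix ATH1 arrays, 12 in all. The wild type Col-0 and lcs7, a mutant of AVP1 in the Col-0 ecotype, grew on agar with Yamagami medium and sucrose that held either 2 mM or 0.3 mM calcium. Each of the 4 combinations has 3 biological replicates. The mutant is represented by a single line, so an effect of avp1 and any other difference between this line and Col-0 cannot be told apart here.

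AVP1 is a proton pump of the vacuolar membrane that uses the energy of pyrophosphate. It acidifies the vacuole together with the vacuolar ATPase, and it clears the pyrophosphate released by biosynthesis. The proton gradient it helps to build drives the loading of calcium and other solutes into the vacuole by exchangers. The members below were not grouped by any of these functions. They are a mixed set of receptors, enzymes, cell wall proteins, nuclear proteins and genes of unknown function. The share of each role group among the eligible genes was not counted, so the counts per group below are a description.

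Signals are the deposited intensities on a linear scale. Differences and changes are on the log2(signal + 50) scale with the standard error (SE) of the fit over all 12 arrays, n = 3 per group. This SE pools the spread of all groups. For a given gene it is therefore the same at both supplies, even where the spread differs between groups. The offset of 50 damps noise in dim probe sets, and it understates the change of a gene with a low signal. In bulk shoots, fewer cells that express a gene and less RNA per cell cannot be told apart. Array medians ran from 161.3 to 187.6. Summed signals of 7 measured of 16 listed shoot markers lay from 77961 to 81449 in Col-0 and from 88138 to 101778 in lcs7 at 2 mM. At 0.3 mM they lay from 68381 to 80750 in Col-0 and from 48257 to 49420 in lcs7. The 3 measured of 14 listed root markers summed to 973.4 to 1174 in Col-0 and 2582 to 3085 in lcs7 at 2 mM, and to 1425 to 1723 in Col-0 and 4528 to 7107 in lcs7 at 0.3 mM. Nearly all of this sum was PYK10, while the root hair expansins EXPA7 and EXPA18 reached at most 45.1 and 109.9. The part of either marker list in the members' differences was not tested.

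The 39 higher members had a median difference of 1.54 at 2 mM calcium (range 0.91 to 4.90) and of 1.25 at 0.3 mM (0.87 to 2.73). Over all 13356 genes the medians were -0.02 and -0.03. The 19 lower members had medians of -1.15 at 2 mM (-3.26 to -0.82) and -1.04 at 0.3 mM (-2.95 to -0.82). Within lcs7 the change from 2 to 0.3 mM had a median of 0.10 in the higher members, with a range from -0.53 to 0.99. In the lower members that change had a median of -0.22 and ranged from -0.56 to 0.44. The members are thus not free of a calcium response: the bounds let through AT5G47130 and AT3G53650, which both changed by 0.99 within lcs7.

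**Figure D1:**
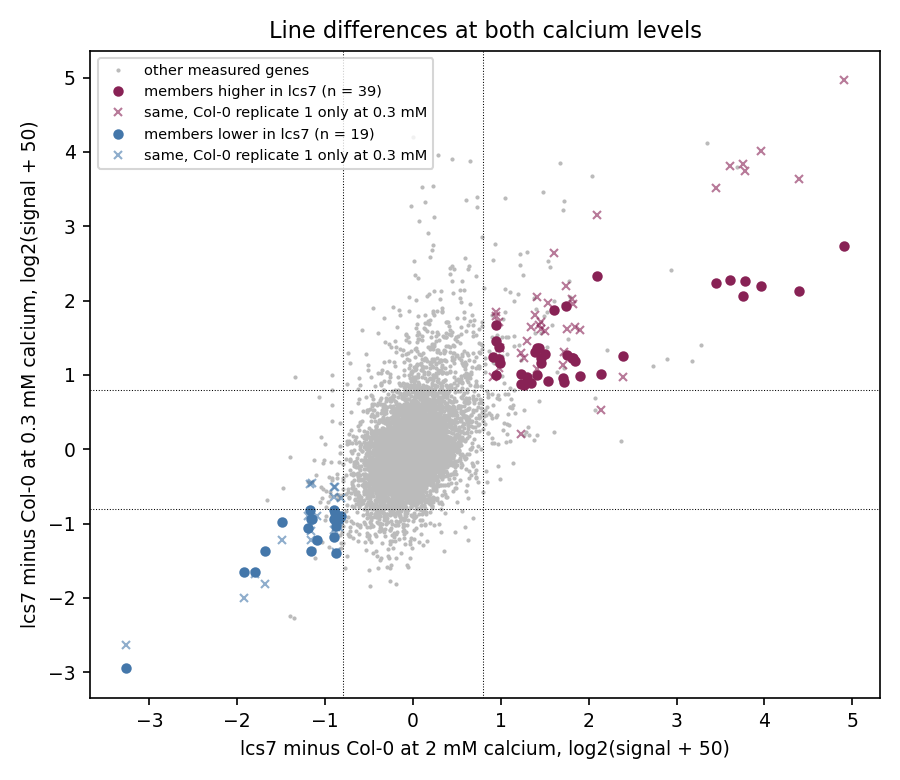
Each point is a gene, with the lcs7 minus Col-0 difference in mean log2(signal + 50) at 2 mM calcium on the horizontal axis and at 0.3 mM on the vertical axis. Filled points are the 39 higher and 19 lower members, crosses show the same genes with only Col-0 replicate 1 at 0.3 mM, grey points are other measured genes, and dotted lines mark 0.8 and -0.8. Most crosses of the higher members lie above their points.

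The limma calls were fitted over the whole table and are printed for the members only beside their background, since the choice used the same contrasts. At 2 mM, 36 higher and all 19 lower members had an adjusted p under 0.05, where 4.62% of all genes were called. At 0.3 mM the counts were 37 and 19, where 21.2% of all genes were called. The exceptions were AT1G52200 and AT3G47010 at both supplies and AT3G44450 at 2 mM. The 3 arrays of each line did not overlap at 2 mM in all 39 higher members (8.83% of all genes, in that direction) and in all 19 lower members (12.6%). At 0.3 mM they did not overlap in 38 of 39, AT3G47010 being the exception (15.7% of all genes), and in all 19 lower members (20% of all genes). Nothing is read from these counts.

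The higher members were led by genes with a low signal in Col-0 at 2 mM and a strong one in lcs7. The mean Col-0 signal at 2 mM was under 50 in 13 of the 39 and under 20 in 9, while the mean lcs7 signal reached 500 in 21. Dim signals are poorly resolved on these arrays, so the size of such a difference is uncertain although its separation from the lcs7 arrays is wide.

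AT3G47250, of a plant family with a domain of unknown function, had the largest difference at 2 mM. Its signals were 20.5, 2.7 and 12.5 in Col-0 at 2 mM, 23.4, 581.1 and 841.5 in Col-0 at 0.3 mM, 1962.5, 1623.3 and 1803.9 in lcs7 at 2 mM and 2272.5, 2261.3 and 2192.5 in lcs7 at 0.3 mM. All 6 lcs7 arrays were high, Col-0 was near background at 2 mM, and at 0.3 mM Col-0 replicates 2 and 3 lay between the lines while replicate 1 was just above the 2 mM range. The differences were 4.90 (SE 0.67) at 2 mM and 2.73 (SE 0.67) at 0.3 mM.

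AT1G73490 encodes a protein of the RNA-binding family with an RNA recognition motif. Its signals were 53.5, 47.3 and 57.9 in Col-0 at 2 mM, 58.5, 381.7 and 610.9 in Col-0 at 0.3 mM, 1215.8, 1152.6 and 1253.4 in lcs7 at 2 mM and 1344.7, 1527.6 and 1557.1 in lcs7 at 0.3 mM. The lines did not overlap at either supply, and again Col-0 replicates 2 and 3 at 0.3 mM stood above the other Col-0 arrays. The differences were 3.61 (SE 0.47) and 2.28 (SE 0.47).

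Receptor-type proteins gave 4 higher members and no lower one. AT3G43740, of the leucine-rich repeat family, had signals of 37.1, 17.3 and 1.4 in Col-0 at 2 mM, 16.6, 227.8 and 302.3 in Col-0 at 0.3 mM, 953.1, 720.1 and 960.7 in lcs7 at 2 mM and 800.4, 892.0 and 839.4 in lcs7 at 0.3 mM. It had the Col-0 pattern of AT3G47250, low in 4 of the 6 arrays, and the differences were 3.78 (SE 0.47) and 2.26 (SE 0.47). AT5G43740, a nucleotide-binding leucine-rich repeat receptor of the kind that senses pathogens inside the cell, had 36.8, 25.1 and 37.9 in Col-0 at 2 mM, 8.1, 76.0 and 63.6 in Col-0 at 0.3 mM, 229.4, 160.4 and 132.4 in lcs7 at 2 mM and 203.9, 186.4 and 182.6 in lcs7 at 0.3 mM. All of its lcs7 arrays exceeded all of its Col-0 arrays. The other receptor-type members were the receptor-like kinase AT1G18390 and the wall-associated kinase-like AT1G16260, with differences at 2 mM of 0.97 (SE 0.17) and 1.70 (SE 0.20).

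The next group of strong members is mixed in function. AT5G51620, of an uncharacterised protein family, had signals of 16.1, 12.5 and 22.5 in Col-0 at 2 mM, 11.4, 158.0 and 209.4 in Col-0 at 0.3 mM, 651.1, 696.7 and 691.0 in lcs7 at 2 mM and 718.0, 623.0 and 620.6 in lcs7 at 0.3 mM. Its lcs7 level was alike at both supplies, with a change of -0.05 within lcs7, and Col-0 replicate 1 at 0.3 mM was the lowest array of all 12. AT4G02540 belongs to a family with cysteine- and histidine-rich C1 domains. Its signals were 46.6, 69.9 and 50.8 in Col-0 at 2 mM, 33.0, 406.5 and 610.6 in Col-0 at 0.3 mM, 1083.4, 2008.8 and 1821.3 in lcs7 at 2 mM and 986.3, 1358.0 and 1596.8 in lcs7 at 0.3 mM. Col-0 replicates 2 and 3 at 0.3 mM were again intermediate. The differences of AT4G02540 were 3.96 (SE 0.58) and 2.19 (SE 0.58), and those of AT5G51620 were 3.45 (SE 0.39) and 2.24 (SE 0.39).

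AT1G23960, of another family with a domain of unknown function, had signals of 2.2, 11.9 and 3.4 in Col-0 at 2 mM, 27.7, 284.8 and 361.2 in Col-0 at 0.3 mM, 1225.7, 1031.6 and 1113.0 in lcs7 at 2 mM and 932.0, 918.7 and 897.0 in lcs7 at 0.3 mM. Here all 3 Col-0 arrays at 0.3 mM exceeded those at 2 mM, with replicates 2 and 3 far above replicate 1. AT5G44580, for which no role is given here, had 239.0, 254.1 and 224.8 in Col-0 at 2 mM, 235.3, 1604.6 and 1893.5 in Col-0 at 0.3 mM, 3215.8, 4740.1 and 3734.1 in lcs7 at 2 mM and 4443.5, 4349.5 and 3334.3 in lcs7 at 0.3 mM. This gene was well above background in every array, so its pattern does not rest on dim signals. The differences at 2 and 0.3 mM were 4.39 (SE 0.45) and 2.13 (SE 0.45) for AT1G23960, and 3.75 (SE 0.54) and 2.06 (SE 0.54) for AT5G44580.

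Nuclear proteins gave 3 higher members, and AT1G73490 was described above. AT1G12400, related to the TTDA subunit of the TFIIH complex of DNA repair, had signals of 71.0, 22.7 and 27.6 in Col-0 at 2 mM, 30.0, 101.3 and 183.4 in Col-0 at 0.3 mM, 304.9, 341.9 and 334.6 in lcs7 at 2 mM and 661.2, 656.3 and 660.1 in lcs7 at 0.3 mM. AT3G53650, a histone of the H2B family, had 10.5, 12.9 and 4.3 in Col-0 at 2 mM, 7.4, 74.1 and 78.4 in Col-0 at 0.3 mM, 159.2, 120.5 and 112.3 in lcs7 at 2 mM and 262.8, 371.2 and 293.0 in lcs7 at 0.3 mM. In both genes every lcs7 array at 0.3 mM exceeded every lcs7 array at 2 mM, with changes of 0.91 and 0.99 within lcs7, close to the upper bound of 1. The differences at 2 and 0.3 mM were 2.10 (SE 0.30) and 2.33 (SE 0.30) for AT1G12400, and 1.60 (SE 0.26) and 1.88 (SE 0.26) for AT3G53650.

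Enzyme families were the most frequent class with a role given, with 9 higher and 2 lower members. AT3G47800, of the galactose mutarotase-like family, had signals of 558.6, 537.1 and 531.5 in Col-0 at 2 mM, 597.9, 741.3 and 867.2 in Col-0 at 0.3 mM, 2093.3, 1588.7 and 2154.0 in lcs7 at 2 mM and 2825.6, 2856.2 and 3058.5 in lcs7 at 0.3 mM. The lines were far apart at both supplies, by 1.74 (SE 0.14) and 1.93 (SE 0.14), and the Col-0 arrays at 0.3 mM were all above those at 2 mM and far below lcs7. The other enzymes include the 2-oxoglutarate-dependent oxygenases AT1G06640 and AT5G43440, with differences at 2 mM of 1.38 (SE 0.17) and 1.23 (SE 0.16), and the pyruvate kinase family gene AT3G49160, with 0.99 (SE 0.22). AT3G49160 was the only higher member whose mean was lower in Col-0 at 0.3 than at 2 mM, by a change of -0.66.

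AT1G78460, of the SOUL haem-binding family, had signals of 835.7, 746.8 and 1017.9 in Col-0 at 2 mM, 743.3, 1076.7 and 1027.3 in Col-0 at 0.3 mM, 2190.1, 2484.9 and 2598.0 in lcs7 at 2 mM and 3182.6, 2143.9 and 2247.3 in lcs7 at 0.3 mM. The lowest lcs7 array, at 2143.9, stood far above the highest Col-0 array, at 1076.7. The differences were 1.44 (SE 0.18) and 1.36 (SE 0.18). The remaining higher members include the HSP90 co-chaperone AT4G02450, with a difference of 1.46 (SE 0.20) at 2 mM, the Bax inhibitor family gene AT5G47130, with 0.95 (SE 0.12), and the cryptochrome inhibitor BIC2 (AT3G44450), with 0.91 (SE 0.26). The pseudogenes AT3G29120 and AT4G08110 were higher by 1.85 (SE 0.20) and 1.72 (SE 0.19) at 2 mM, the first on a probe set marked as shared between transcripts.

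**Figure D2:**
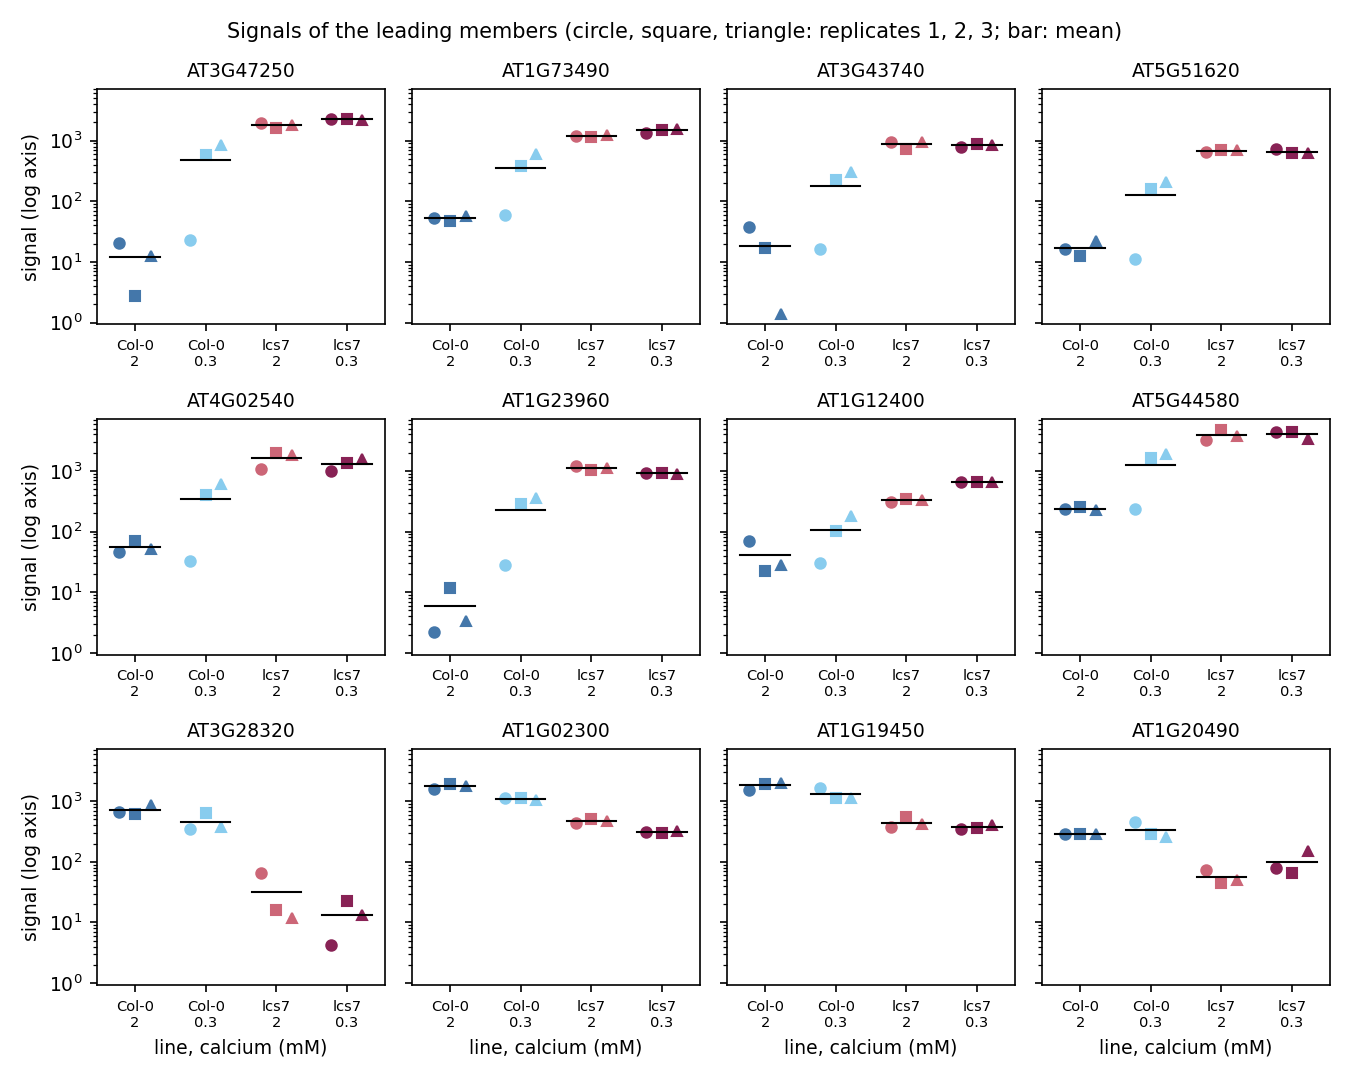
Signal on a log axis in each of the 12 arrays for the 8 higher and 4 lower members with the largest smaller-of-both differences, by line and calcium in mM. Circles, squares and triangles are replicates 1, 2 and 3 and bars are group means, and in all 8 higher members Col-0 replicate 1 at 0.3 mM lies below replicates 2 and 3.

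The lower members were led by AT3G28320, of another plant family with a domain of unknown function. Its signals were 652.9, 612.0 and 853.2 in Col-0 at 2 mM, 340.9, 646.1 and 373.0 in Col-0 at 0.3 mM, 66.4, 16.0 and 11.9 in lcs7 at 2 mM and 4.3, 23 and 13.2 in lcs7 at 0.3 mM. All 6 lcs7 arrays were far below all 6 Col-0 arrays. The differences were -3.26 (SE 0.26) at 2 mM and -2.95 (SE 0.26) at 0.3 mM, and this is the only member lower by more than 2 at either supply.

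Transport proteins gave 2 lower members and no higher one. AT1G19450, a sugar transporter of the ERD6-like family, whose members are known from the vacuolar membrane, had signals of 1533.1, 1911.8 and 2007.3 in Col-0 at 2 mM, 1632.3, 1118.9 and 1122.1 in Col-0 at 0.3 mM, 368.7, 537.7 and 424.7 in lcs7 at 2 mM and 349.3, 366.7 and 398.1 in lcs7 at 0.3 mM. AT1G68600, of the family of aluminium-activated malate transporters, which are anion channels, had 1292.3, 1943.6 and 1348.5 in Col-0 at 2 mM, 830.8, 1226.6 and 1627.9 in Col-0 at 0.3 mM, 434.1, 763.2 and 827.1 in lcs7 at 2 mM and 731.6, 510.2 and 560.6 in lcs7 at 0.3 mM. Neither gene had overlapping arrays within a supply, but for AT1G68600 the lowest Col-0 array at 0.3 mM was close to the highest lcs7 array at 2 mM. The differences were -1.92 (SE 0.17) and -1.65 (SE 0.17) for AT1G19450, and -1.15 (SE 0.27) and -0.94 (SE 0.27) for AT1G68600.

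Cell wall or apoplast proteins gave 5 lower members and 1 higher one, AT1G09910 of the rhamnogalacturonate lyase family. The glycosyl hydrolase family gene AT3G47010, a higher member, was grouped with the enzymes. The split depends on this grouping by hand, and nothing is read from it. AT1G31690, a copper amine oxidase family gene, had signals of 639.9, 866.0 and 617.1 in Col-0 at 2 mM, 749.5, 954.6 and 1205.9 in Col-0 at 0.3 mM, 300.6, 342.0 and 268.2 in lcs7 at 2 mM and 388.2, 413.8 and 341.2 in lcs7 at 0.3 mM. AT1G60590, of the pectin lyase-like family that includes pectin-degrading enzymes, had 399.9, 556.5 and 346.0 in Col-0 at 2 mM, 490.4, 619.8 and 762.0 in Col-0 at 0.3 mM, 208.4, 229.7 and 180.4 in lcs7 at 2 mM and 266.1, 295.9 and 327.3 in lcs7 at 0.3 mM. In both genes the mean was higher at 0.3 mM in each line, and the lines stayed apart within each supply. The differences were -1.09 (SE 0.17) and -1.22 (SE 0.17) for AT1G31690, and -0.90 (SE 0.17) and -0.94 (SE 0.17) for AT1G60590. The others were the pectin methylesterase AT5G64640, the invertase or pectin methylesterase inhibitor AT1G23205 and the ascorbate oxidase AT5G21100, with differences at 2 mM from -1.17 to -0.87.

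AT1G02300, a cathepsin B-like cysteine protease, had signals of 1583.4, 1897.1 and 1800.5 in Col-0 at 2 mM, 1106.4, 1114.9 and 1037.4 in Col-0 at 0.3 mM, 432.4, 510.7 and 466.4 in lcs7 at 2 mM and 312.3, 294.4 and 324.6 in lcs7 at 0.3 mM. The level fell in steps over the 4 groups, none of which overlapped with another. The differences were -1.80 (SE 0.09) and -1.66 (SE 0.09), and the change with calcium was -0.67 in Col-0 and -0.53 in lcs7. The subtilase family gene AT4G21650 was also lower, by -0.88 (SE 0.13) at 2 mM and -1.39 (SE 0.13) at 0.3 mM, while the other member of the protease and inhibitor group, the serine protease inhibitor AT1G72060, was higher.

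AT1G20490, of the family of AMP-dependent synthetases and ligases, had signals of 290.3, 289.0 and 292.2 in Col-0 at 2 mM, 452.7, 283.0 and 252.6 in Col-0 at 0.3 mM, 73.7, 45.5 and 49.6 in lcs7 at 2 mM and 78.2, 66.2 and 147.8 in lcs7 at 0.3 mM. Its Col-0 replicates at 2 mM were nearly equal and its lcs7 arrays all lay below 150. AT1G72030, an N-acyltransferase family gene, had 2388.2, 2622.3 and 2310.2 in Col-0 at 2 mM, 1941.0, 2361.9 and 2280.1 in Col-0 at 0.3 mM, 980.9, 1108.9 and 1029.6 in lcs7 at 2 mM and 1076.2, 1100.6 and 892.9 in lcs7 at 0.3 mM. It was a strong signal in every array, with differences of -1.19 (SE 0.11) and -1.07 (SE 0.11) and almost no change with calcium in lcs7 (-0.03). The differences of AT1G20490 were -1.69 (SE 0.21) and -1.37 (SE 0.21).

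AT1G23120, of the family of polyketide cyclases and lipid transport proteins, had signals of 263.3, 171.6 and 268.9 in Col-0 at 2 mM, 231.9, 213.1 and 132.0 in Col-0 at 0.3 mM, 53.5, 25.5 and 79.2 in lcs7 at 2 mM and 67.0, 80.2 and 66.5 in lcs7 at 0.3 mM. AT1G26530, of the PIN domain-like family, had 93.4, 90 and 103.2 in Col-0 at 2 mM, 116.8, 84.3 and 67.7 in Col-0 at 0.3 mM, 27.6, 5.4 and 13.6 in lcs7 at 2 mM and 19.8, 21.3 and 24.4 in lcs7 at 0.3 mM. Both were dim in lcs7, at most 80.2 in every array, and the lines did not overlap at either supply. The differences were -1.48 (SE 0.21) and -0.98 (SE 0.21) for AT1G23120, and -1.16 (SE 0.14) and -0.94 (SE 0.14) for AT1G26530.

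No role is given here for AT4G33666 and AT5G65685. AT4G33666 had signals of 2446.8, 2658.7 and 2909.8 in Col-0 at 2 mM, 1781.5, 1966.7 and 2855.3 in Col-0 at 0.3 mM, 928.0, 1531.1 and 1119.8 in lcs7 at 2 mM and 806.4, 995.1 and 653.9 in lcs7 at 0.3 mM. AT5G65685 had 696.9, 672.4 and 622.2 in Col-0 at 2 mM, 617.2, 668.0 and 702.0 in Col-0 at 0.3 mM, 372.4, 296.6 and 329.7 in lcs7 at 2 mM and 266.4, 254.5 and 274.3 in lcs7 at 0.3 mM. Neither gene had overlapping lines. Their differences were -1.16 (SE 0.21) and -1.36 (SE 0.21) for AT4G33666, and -0.90 (SE 0.09) and -1.18 (SE 0.09) for AT5G65685.

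**Figure D3:**
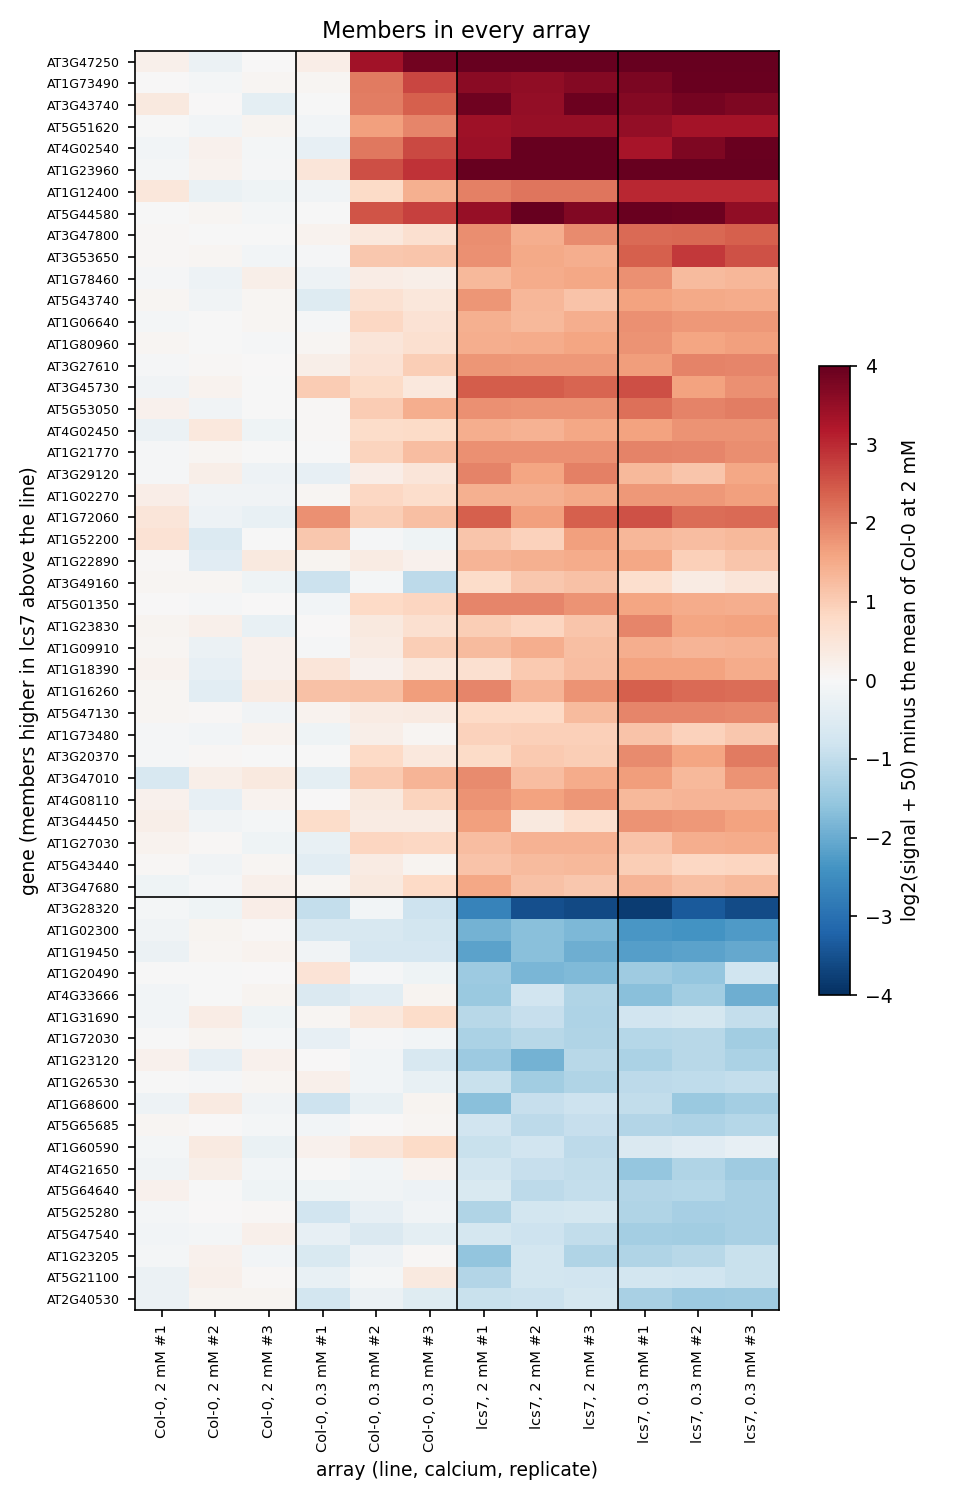
Rows are the 58 members and columns the 12 arrays, with colour giving log2(signal + 50) minus its mean in Col-0 at 2 mM, drawn between -4 and 4. In the higher members, above the line, Col-0 replicates 2 and 3 at 0.3 mM are shaded towards lcs7 and replicate 1 mostly is not.

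The arrays of Col-0 at 0.3 mM did not behave alike over the higher members. On a linear scale from the mean of Col-0 at 2 mM (0%) to the mean of lcs7 at 0.3 mM (100%), replicates 1, 2 and 3 had median positions over the 39 genes of -0.05, 22.5 and 28.4%. Those of Col-0 at 2 mM had 0.68, -0.43 and -0.38%. Both replicates 2 and 3 lay between all 3 Col-0 arrays at 2 mM and all 3 lcs7 arrays at 0.3 mM in 34 of the 39 genes, and replicate 1 did so in 13. The 5 exceptions were AT1G22890, AT1G52200, AT1G73480, AT3G47010 and AT3G49160. Replicate 1 had the lowest signal of the 3 in 33 of the 39 genes. The choice kept genes whose mean in Col-0 at 0.3 mM lay at least 0.8 below that in lcs7. Positions below the lcs7 arrays were thus largely fixed by it. No share over all genes is given for these counts, so they are a description. In the 10 genes with a difference of at least 2 at 2 mM the medians were 0.14, 24.2 and 35.8%.

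The position was not the same for every gene. In replicate 2 it ranged from -14.4 to 52.2% over the 39 genes and in replicate 3 from -126 to 75.7%, and across genes the positions in both replicates had Pearson's r = 0.71 and Spearman's rho = 0.60. Genes are not independent replicates, and all these positions share the same reference groups, so no p is given. The lower members had medians of 32.6, 15.2 and 17.3% in replicates 1, 2 and 3, which is another order than in the higher members. A comparison list of 45 genes, chosen after the data were seen, that differed by less than 0.3 between the lines at 2 mM and rose by at least 2 in lcs7 at 0.3 mM had medians of 12, 8.55 and 3.32%. Replicates 2 and 3 thus did not lie above replicate 1 in that list. The 10 genes with a symbol that met the bounds upward, also listed after the data were seen, had medians of 5.56, 19.6 and 19.6%. Replicate 1 was the lowest in 8 of these 10, and in 10 of the 45 genes of the list before. The genes with a symbol met the same bounds on the same arrays, so they are no independent comparison. The cause of the split was not tested.

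**Figure D4:**
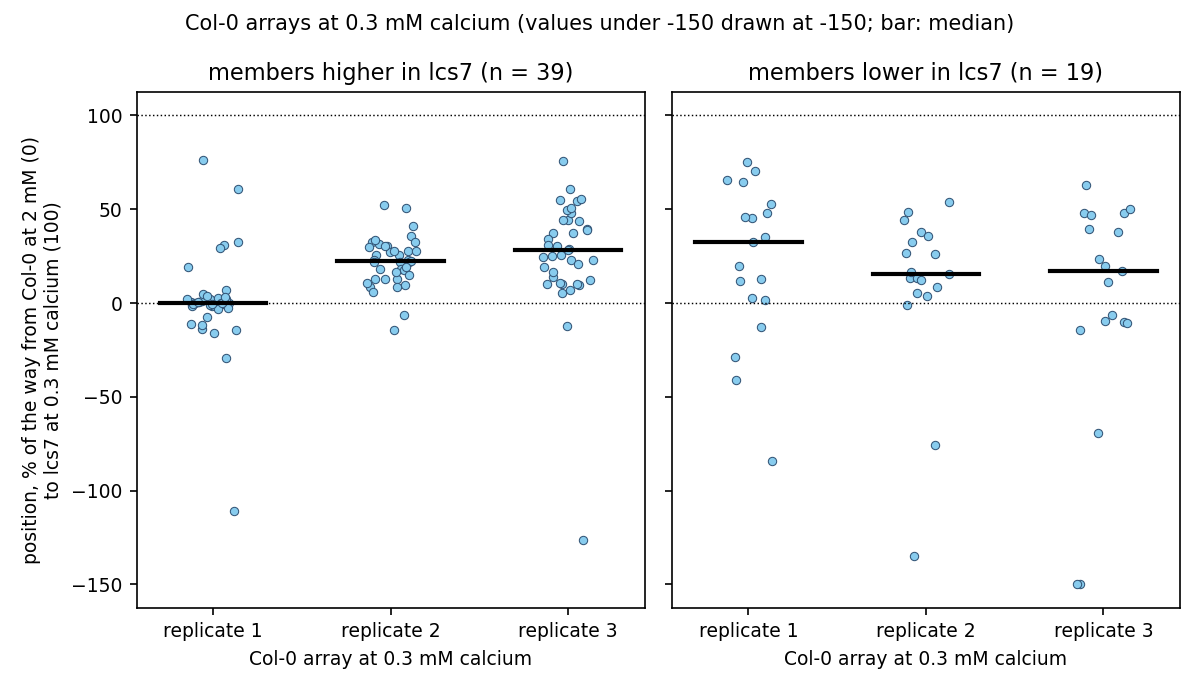
Position of each Col-0 array at 0.3 mM calcium in percent of the way from the mean of Col-0 at 2 mM (0) to the mean of lcs7 at 0.3 mM (100), 1 point per member, with the median as a bar and the lowest values drawn at the lower end of the axis. Over the 39 higher members the medians are -0.05, 22.5 and 28.4%, and over the 19 lower members 32.6, 15.2 and 17.3%.

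This split bears on how large the higher members look at low calcium. The higher members' median spread within a group, as SD of log2(signal + 50), was 0.44 in Col-0 at 0.3 mM, against 0.17 in Col-0 at 2 mM and 0.13 and 0.11 in lcs7 at 2 and 0.3 mM. Over all genes those values were 0.16, 0.14, 0.14 and 0.12. The printed SEs pool all groups. Where Col-0 at 0.3 mM was the most spread, they overstate the error of the difference at 2 mM. In those genes they understate it at 0.3 mM. With all arrays, the difference was larger at 2 than at 0.3 mM in 29 of the 39 higher members and in 5246 of all 13356 genes. With replicate 1 as the only Col-0 array at 0.3 mM these counts were 12 and 4834. The median difference at 0.3 mM was then 1.68 instead of 1.25. The same step left the median of the lower members at -1.05, against -1.04.

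The calcium change of Col-0 itself follows from the same arrays. Its median was 0.48 in the higher members (range -0.66 to 2.49), above 0 in 38 of the 39, and with replicate 1 alone it was 0.00. Over all genes the median was -0.01, with 6335 of 13356 above 0. In the lower members the median was -0.24. At an adjusted p under 0.05, limma called 3 higher members (AT1G16260, AT1G23960 and AT1G72060) and 1 lower member (AT1G02300) for calcium in Col-0, or 4 of 58, where 3.59% of all genes were called. The choice of members used both Col-0 groups, so nothing is read from these counts. AT1G16260 had signals of 179.5, 113.2 and 220.7 in Col-0 at 2 mM and 435.9, 449.2 and 640.5 at 0.3 mM, and there replicate 1 was not apart from replicate 2.

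When the choice was repeated without Col-0 replicates 2 and 3 at 0.3 mM, 62 genes met it, and 50 of the 58 members were among them. The higher members lost were AT1G52200 and AT1G72060, and the lower ones AT1G23205, AT1G60590, AT1G68600, AT2G40530, AT5G21100 and AT5G25280. In 33 members, 24 higher and 9 lower, the bounds were met in each of the 12 repeats that left out a single array.

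The bounds cut through a continuous range. Just inside the upward bound lay AT3G47680, AT5G43440 and AT1G27030, with smaller differences of 0.87, 0.87 and 0.88, and just outside lay AT5G44500, AT5G46080 and AT3G28940 with 0.79, 0.78 and 0.78. On the downward side AT2G40530, AT5G21100 and AT1G23205 lay inside at -0.82 each, and AT3G43270, AT1G48750 and AT2G26690 outside at -0.79, -0.76 and -0.76. For the calcium change within lcs7, AT2G40530, AT1G02300 and AT3G29120 lay inside the lower bound at -0.56, -0.53 and -0.53, and AT1G11280, AT2G04790 and AT1G13650 outside at -0.62, -0.62 and -0.68. At the upper bound AT5G47130, AT3G53650 and AT1G12400 lay inside at 0.99, 0.99 and 0.91. Just outside it lay AT5G24240, AT5G44060 and AT4G27300 at 1.01, 1.05 and 1.09, although AT5G24240 differed between the lines by at least 3.35 at both supplies.

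The requirement of a locus name and the list of left-out genes also shaped the set. Among the 1557 genes with a symbol, 10 met the bounds upward and 2 downward. The upward ones include the histone gene HTB11, the glutaredoxin GRXC1 and the clock gene GI, and the downward ones are the expansin EXPA8 and the tubulin TUB1. Of the 9 genes left out, 5 met the bounds, all of them upward (AT1G15890, AT3G44400, AT3G44630, AT5G51630 and AT5G63020), so the counts of higher members lack them. A further probe set was measured for 2 members, and its differences at 2 and 0.3 mM were -0.05 and 0.23 for AT1G18390 and -0.18 and -0.89 for AT1G31690. The second probe set of AT1G18390 thus did not show the difference of the first, and that of AT1G31690 showed one of comparable size only at 0.3 mM.

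Position along the chromosomes was not part of the choice. Taken from the locus identifiers, 27 of the 58 members lay on chromosome 1, where 3067 eligible genes were measured (0.880%). Chromosome 3 held 13 of 2416 (0.538%), chromosome 5 held 12 of 2670 (0.449%), chromosome 4 held 5 of 1699 (0.294%) and chromosome 2 held 1 of 1938 (0.0516%). Over all 5 chromosomes the share was 0.492%. The single member on chromosome 2 was AT2G40530, and no higher member lay there. AVP1 itself lies on chromosome 1, and among the 94 measured genes whose locus numbers surround it, AT1G16260 was the only member. AT1G15890 there also met all bounds, with differences of 1.52 and 1.38, and is no member because it was among the 9 genes left out. AT1G15790, also no member, had the smallest limma adjusted p of the 94 at both supplies, with differences of 1.20 and 2.09. The bounds used the contrasts tested here, so the calls of AT1G16260 and AT1G15890 were largely fixed by them. Both genes count in the shares below, which are a description. Of these 94, limma called 8 (8.51%, against 4.62% of all genes) at 2 mM and 28 (29.8%, against 21.2%) at 0.3 mM. Without Col-0 replicates 2 and 3 at 0.3 mM the latter count was 14 (14.9%, against 10.3%).

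**Figure D5:**
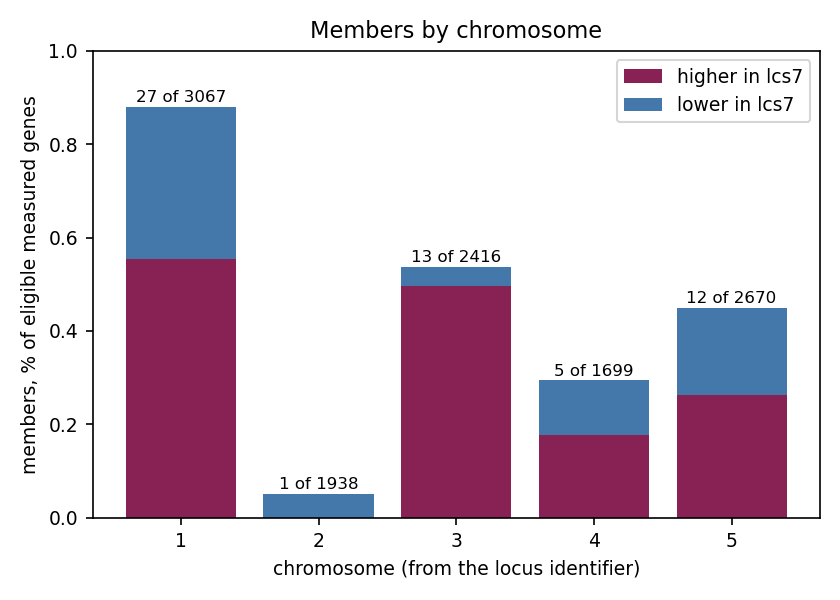
Members as a percent of the eligible measured genes of each chromosome, split into higher and lower in lcs7, with the counts above the bars. Chromosome 1 has 27 of 3067 and chromosome 2 has 1 of 1938.

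Pairs of members also lay close together. With 3 measured genes on each side counted as neighbours, 4 pairs of members were neighbours. AT1G73480, of the alpha/beta hydrolase family, had signals of 86.0, 81.2 and 104.9 in Col-0 at 2 mM, 74.2, 115.1 and 98.4 in Col-0 at 0.3 mM, 217.6, 222.4 and 218.9 in lcs7 at 2 mM and 258.3, 214.2 and 249.1 in lcs7 at 0.3 mM. It was higher in lcs7 like its neighbour AT1G73490, but the Col-0 arrays at 0.3 mM were less far apart, with replicates 2 and 3 at 16.3 and 5.14% of the way to lcs7 against 23.1 and 39.2% for AT1G73490. AT3G47680, with no role given here, had 5.3, 10.1 and 21.4 in Col-0 at 2 mM, 15, 31.9 and 57.8 in Col-0 at 0.3 mM, 131.2, 89.4 and 81.4 in lcs7 at 2 mM and 110.5, 93.4 and 102.1 in lcs7 at 0.3 mM. It was higher in lcs7 like its neighbour AT3G47800, at far lower signals.

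The members of the other pairs went in opposite directions. AT1G02270, of a calcium-binding family of endonucleases, exonucleases and phosphatases, had signals of 265.8, 188.3 and 188.0 in Col-0 at 2 mM, 227.9, 412.2 and 380.4 in Col-0 at 0.3 mM, 645.5, 657.0 and 702.1 in lcs7 at 2 mM and 818.4, 818.4 and 762.9 in lcs7 at 0.3 mM. It was higher in lcs7 by 1.46 (SE 0.17) and 1.16 (SE 0.17), while its neighbour AT1G02300 was lower. AT1G72060, the serine protease inhibitor, had 209.3, 110.1 and 100.9 in Col-0 at 2 mM, 601.9, 314.5 and 374.1 in Col-0 at 0.3 mM, 923.0, 522.9 and 913.0 in lcs7 at 2 mM and 1037.5, 821.6 and 833.3 in lcs7 at 0.3 mM. Here Col-0 replicate 1 at 0.3 mM was the highest of the Col-0 arrays, and the neighbour AT1G72030 was lower in lcs7.

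The genes around the members were described next. The list holds the 3 nearest measured genes on each side of every member, without the members and the left-out genes, or 318 genes. It is not independent of the choice: 292 of the 318 were eligible and are in the list because their own values did not meet the bounds, and the other 26 carry a symbol. Limma called 30 of them at 2 mM, 21 higher and 9 lower, which is 9.43% against 4.62% of all genes. At 0.3 mM it called 83, 41 higher and 42 lower, or 26.1% against 21.2%. Without Col-0 replicates 2 and 3 at 0.3 mM the counts were 29 at 2 mM and 43 at 0.3 mM (13.5%, against 10.3% of all genes). The count at 2 mM was 19 without Col-0 replicate 1 at 2 mM (5.97%, against 3.15% of all genes in that fit) and 18 without lcs7 replicate 3 at 2 mM (5.66%, against 2.46%). No test of the list itself was made, so the shares are a description.

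Some neighbours differed between the lines at both supplies. AT1G23140, near the lower member AT1G23120, had signals of 3.7, 19.4 and 12.8 in Col-0 at 2 mM, 63.7, 103.4 and 100 in Col-0 at 0.3 mM, 112.1, 113.2 and 148.7 in lcs7 at 2 mM and 471.2, 391.7 and 422.9 in lcs7 at 0.3 mM. It rose in lcs7 by 1.50 (SE 0.14, limma adjusted p = 0.000193) at 2 mM and by 1.79 (SE 0.14, limma adjusted p = 9.16e-06) at 0.3 mM, opposite to that member. APS4, an ATP sulfurylase of sulfate assimilation near the higher member AT5G43740, had 434.7, 406.7 and 390.8 in Col-0 at 2 mM, 461.7, 760.4 and 858.8 in Col-0 at 0.3 mM, 969.5, 835.3 and 922.2 in lcs7 at 2 mM and 2149.4, 1962.1 and 1918.1 in lcs7 at 0.3 mM. It rose by 1.06 (SE 0.17, limma adjusted p = 0.00442) and 1.51 (SE 0.17, limma adjusted p = 0.000106), and its Col-0 replicates 2 and 3 at 0.3 mM were again above replicate 1. AT1G21790 and AT1G23750 were lower in lcs7 than in Col-0 at both supplies, by 0.57 (SE 0.09, limma adjusted p = 0.00297) and 0.40 (SE 0.10, limma adjusted p = 0.0353) on the log2 scale at 2 mM, although the members nearest to them were higher. Of the 318 genes, AT1G23140 and APS4 were the 2 past 0.8 at both supplies. AT1G23140 is no member because of its calcium change within lcs7, and APS4 carries a symbol.

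The other named neighbours passed the test at 0.3 mM alone, and for each of them limma also called the interaction of line and calcium (5.96% of all genes). Naming them by the smallest adjusted p of a line difference favours such a call, so nothing is read from it. AT5G44570, next to the higher member AT5G44580, had signals of 1.9, 5.7 and 31.1 in Col-0 at 2 mM, 3, 32 and 10.1 in Col-0 at 0.3 mM, 47, 40.5 and 41.7 in lcs7 at 2 mM and 278.6, 385 and 334.2 in lcs7 at 0.3 mM. It rose by 2.57 (SE 0.19, limma adjusted p = 6.18e-06) at 0.3 mM, against a difference of 0.59 (SE 0.19, limma adjusted p = 0.111) at 2 mM. In Col-0 its arrays at 0.3 mM overlapped with those at 2 mM. COR47, a dehydrin of the cold and drought response near the lower member AT1G20490, had signals from 5486 to 11232 in all Col-0 arrays, from 7276 to 8467 in lcs7 at 2 mM and from 1509 to 2007 in lcs7 at 0.3 mM. It fell by 1.82 (SE 0.17, limma adjusted p = 3.46e-05) on the log2 scale at 0.3 mM.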

How the data were processed

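The deposited values are linear intensities, 1 per probe set and array, with a floor of 0.1. Per the submitters' processing notes RMA and oligo 1.32.0 were used, but the values are neither log2 nor on shared quantiles, so the summarisation behind them is not given in the sources used here. Of 14016 probe sets that the annotation names, 13513 name 1 gene, and the one with the highest mean was kept for each of 13356 genes. The AVP1 probe set is not analysed here. Arrays give no read depth, and 3 arrays per group set the precision.

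Groups and replicate numbers came from the labels. Differences of log2(signal + 50) were fitted with limma 3.58.1 in R 4.3.3, with a mean for each group and moderated by empirical Bayes. The tests were 2-sided, their p-values were adjusted by Benjamini-Hochberg over the 13356 genes and called at 0.05, and the fit was tested on simulated data. Figures were drawn with Python 3.11.15. Positions of arrays between groups are plain percentages of the linear signal. Neighbours were ranked by locus number.

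The members, bounds, lists and tests were chosen with earlier results of these data known. Values per array are given for the 12 higher and 12 lower members with the largest smaller-of-both differences, for members that neighbour another member, and differences only for genes at the bounds. The 10 called neighbours with the smallest adjusted p are named. Roles are background knowledge, given for 46 members, and were grouped by hand. Some groups, such as cell wall or apoplast, were not among those planned. The marker lists are those of shoots, roots, and flowers, pollen or seeds, of which the last had 0 of 10 genes measured. Same-numbered replicates deviated from their group means with correlations from -0.15 to 0.20. The labels give only the replicate number, and whether same-numbered replicates shared a batch was not tested. Alternatives were other offsets, normalizations, filters, moderation and neighbour ranges, a fit of only the groups compared, a replicate block, and arrays left out.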

Additional observations from a re-analysis of the deposited data

Results flagged for a closer look

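For 6 of the named neighbours of members, limma called the interaction of line and calcium, adjusted over all genes. Of all genes, 5.96% were called. The 6 were named by the smallest adjusted p of a line difference, which favours such a call, so nothing is read from it. The adjusted p of the interaction was 0.00200 for AT5G44570, 0.0035 for COR47 and 0.013 for AT1G78410. It was 0.00541 for AT1G68620, 0.0102 for AT5G65750 and 0.00352 for AKINBETA1. None of these genes is a member: COR47 and AKINBETA1 carry a symbol, and the others differed between the lines by less than 0.8 at 2 mM calcium. A fit with replicate 1 as the only Col-0 array at 0.3 mM leaves 1 array in that group, so no p is given for it. The difference at 0.3 mM was then 2.84 for AT5G44570, -1.69 for COR47 and 2.53 for AT1G78410. It was 2.20 for AT1G68620, 0.75 for AT5G65750 and -0.73 for AKINBETA1. The difference of APS4 at 0.3 mM was 2.01 in that fit, against 1.51 with all arrays.

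AT1G78410, near the higher member AT1G78460, had signals of 41.7, 38.2 and 81 in Col-0 at 2 mM, 132.1, 194.7 and 249.3 in Col-0 at 0.3 mM, 120.6, 102.9 and 87.1 in lcs7 at 2 mM and 1060.2, 1247.8 and 754.1 in lcs7 at 0.3 mM. AT1G68620, near the lower member AT1G68600, had mean signals of 6.30, 53.4, 17.3 and 589 in the same order of groups. AT5G65750, near the lower member AT5G65685, had means of 281, 342, 304 and 586. AKINBETA1, a regulatory subunit of the SnRK1 energy-sensing kinase near the lower member AT5G21100, had means of 3105, 1840, 3403 and 1048, so it was lower at 0.3 mM in both lines.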

How the results depend on the processing

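The set depends most on the offset: with none, 338 genes met the bounds and 49 of the 58 members were among them, and with each array left out in turn the number ran from 55 to 75. The calls at 2 mM (617) were 370 with no offset, 380 when only the groups compared were fitted and 328 to 713 with each array left out. At 0.3 mM, 2838 calls became 1381 without Col-0 replicates 2 and 3 at 0.3 mM. Calls for calcium in Col-0 (480) were 41 with no offset, 259 with an offset of 20, 823 without the 40% dimmest genes, 721 with an intensity trend and robust moderation, 76 with only the compared groups and 39 to 521 with each array left out, lowest without Col-0 replicate 3 at 2 mM. The interaction (796) gave 309 with no offset, 298 without Col-0 replicates 2 and 3 at 0.3 mM and 478 to 939 with each array left out. Median centring moved the share of higher calls at 0.3 mM, from 1281 of 2838 to 1076 of 3043, and for calcium in lcs7 from 1688 of 3502 to 1321 of 3905.

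Neighbours called at 2 mM (30 of 318) were 19 with no offset, 79 of 1003 with 10 genes on each side and 18 to 31 with each array left out (5.66 to 9.75%, against 2.46 to 5.34% of all genes). Those called at 0.3 mM (83) were 43 without Col-0 replicates 2 and 3 at 0.3 mM and 248 of 1003 with 10 genes on each side. The median position of replicate 1 (-0.05%) was 32.6% over the lower members, 12% over the genes of low calcium in lcs7 and 5.56% over genes with a symbol that met the bounds upward, the latter pair of lists chosen after the data were seen. For replicate 2 (22.5%) it was 39.2% on the log2 scale, 24.7% with lcs7 at 2 mM as the reference, 15.2% over the lower members, 23.4% after quantile normalization, and 8.55 and 19.6% over the same pair of lists. For replicate 3 (28.4%) the values were 43.7, 35.1 and 17.3% for the first 3 of these, and 3.32 and 19.6% over the pair of lists. With the replicate block the calls were 562 at 2 mM, 2698 at 0.3 mM, 423 and 3343 for calcium in Col-0 and lcs7, 671 for the interaction, and 25 and 75 for the neighbours, all within 1.5 times. The cause of these shifts was not tested.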
